A study of Homo sapiens with 6 samples.

Results

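The 10 genes described here encode receptors, ligands and transcriptional targets of the Notch pathway: NOTCH1, NOTCH2, NOTCH3 and NOTCH4, the ligands JAG1, JAG2 and DLL1, and the repressors HES1, HEY1 and HEY2. They were chosen by gene symbol from a list of the pathway's best known members, out of 61279 genes to which the transcripts of the deposited tables could be assigned. RNA sequencing was done on cells labelled as T47D and as wild type, after 24 hours with 4 μmol/L MI503 or with the solvent DMSO. T47D is a human line of luminal breast cancer with hormone receptors, which the study describes as PIK3CA mutant. MI503 is an inhibitor that keeps menin from docking onto MLL1, a histone methyltransferase. There were 3 libraries labelled MI503 and 3 labelled DMSO, which the sample titles give as biological replicates, and each held 17404736 to 22168525 reads.

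Notch receptors are membrane proteins that are switched on by Jagged or Delta ligands on a neighboring cell. Binding lets an ADAM protease and then γ-secretase cut the receptor, and the freed intracellular domain enters the nucleus, joins the DNA-binding factor RBPJ and a Mastermind coactivator, and turns on genes of the HES and HEY families. HES and HEY proteins are basic helix-loop-helix repressors. In the mammary gland and in breast cancer the pathway is known for its part in luminal cell fate and in growth.

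The 2 labels differed in more than treatment. The luminal breast markers ESR1, GATA3 and PGR were at 0 to 0.581 CPM (reads scaled to library size with TMM factors) in every library labelled DMSO, while in libraries labelled MI503 each was over 200 CPM. In all, 15 of 16 luminal markers could be tested and all were higher with the MI503 label (31.7% of all genes tested were higher). This list summed to 14914 to 21340 CPM with the MI503 label, against 1339 to 1547 CPM with the DMSO label. Of the 12 prostate markers, 11 could be tested and all were lower with the MI503 label (31.2% of all genes tested were lower). The prostate list summed to 171 to 175 CPM with the MI503 label, against 6264 to 7917 CPM with the DMSO label. Markers near 0 with 1 label, such as ESR1 with the DMSO label, passed the filter on low counts through the other label alone. The calls of such markers were in part set by the filter. KLK3, which encodes prostate-specific antigen, had no reads with the MI503 label and 3708 ± 47.9 CPM (SD, n = 3) with the DMSO label. The libraries labelled DMSO therefore go against their labelled cell type, and an effect of MI503 cannot be told apart from a difference between the cells for any gene below. No value can be given without those libraries, since they are the entire DMSO group. In bulk RNA, fewer cells that make a transcript and less of it per cell also cannot be told apart. Here "higher", "lower", "rose" and "fell" compare the libraries labelled MI503 with those labelled DMSO. KMT2A, which encodes MLL1, was at 103 ± 34.4 CPM with the MI503 label and 87.5 ± 34.2 CPM with the DMSO label (SD, n = 3 each; log2 fold change 0.24, adjusted p = 0.511 from edgeR). MEN1, which encodes menin, was at 142 ± 12.2 and 58.7 ± 14.5 CPM with the same labels (SD, n = 3 each; log2 fold change 1.27, adjusted p = 0.000265 from edgeR).

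The promoters of HES1 and HEY2 are shown because these targets rose, and because the pair holds the letters that RBPJ is known to bind, TGGGAA. The sequences are from RefSeq on GRCh38.p14 and run from 250 bases before the annotated start of transcription to 3 bases after it, with each TGGGAA, on either strand, in capitals. HES1 lies at chr3:194135898-194136150 on the plus strand and HEY2 at chr6:125749382-125749634 on the plus strand. Both starts are also those of the canonical GENCODE transcripts HES1-201 and HEY2-201.
HES1: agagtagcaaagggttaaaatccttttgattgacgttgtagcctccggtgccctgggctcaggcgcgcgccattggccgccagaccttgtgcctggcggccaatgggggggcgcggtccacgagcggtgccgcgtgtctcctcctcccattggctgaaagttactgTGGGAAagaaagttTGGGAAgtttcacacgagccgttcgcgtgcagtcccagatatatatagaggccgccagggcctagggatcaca
HEY2: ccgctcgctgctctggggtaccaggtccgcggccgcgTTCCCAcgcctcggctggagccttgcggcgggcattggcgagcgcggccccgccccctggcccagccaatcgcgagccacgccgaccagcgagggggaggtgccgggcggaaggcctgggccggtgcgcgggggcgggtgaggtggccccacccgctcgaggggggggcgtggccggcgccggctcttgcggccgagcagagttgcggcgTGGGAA

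Counted from the start of transcription, HES1 has TGGGAA at −84 to −79 and at −70 to −65, both on the strand of the gene. HEY2 has it on the other strand at −213 to −208 and on its own strand across the start, at −3 to 3. Of 35116 RefSeq promoters of this length, 21.1% held TGGGAA on either strand and 2.98% held it at 2 or more places. The longer form GTGGGAA, which contains the shorter one, was found 1 time in HES1, 2 times in HEY2 and in 5.49% of all promoters. The windows of NOTCH1, NOTCH2, NOTCH3, NOTCH4, JAG1 and JAG2 held neither form. In all, 8 of the 10 genes had an entry, and DLL1 and HEY1 had none. The pair was chosen in part for these letters, so its matches cannot be weighed against the shares of all promoters. A match is a description of the sequence and does not show binding.

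NOTCH2, NOTCH3, DLL1, HES1 and HEY2 rose, JAG1, JAG2 and HEY1 fell, and NOTCH1 did not pass the test. The 2 Jagged ligand genes were thus lower while the Delta ligand gene DLL1 was higher, and the targets HEY1 and HEY2 moved in opposite directions. DLL3, a Delta ligand gene outside the 10, was lower (log2 fold change −9.11, adjusted p = 8.38e-07 from edgeR). Of the 10 genes, 9 passed the filter on low counts, and NOTCH4 was not tested. Of these 9, 5 rose (31.7% of all 16442 genes tested rose) and 3 fell (31.2% of all genes fell) at an adjusted p under 0.05 from edgeR. DLL1 and HEY2 rose and JAG1 and HEY1 fell by more than 2 on the log2 scale, the size the study set for a call, which 12.6% of all genes passed upward and 11.7% downward. The ranges of the 2 labels did not overlap for 8 of the 9 genes, against 68.7% of all genes tested. HEY2 passed the filter through the libraries labelled MI503 alone and HEY1 through those labelled DMSO alone, so the call of each was in part set by the filter. With so large a share of all genes called, the count of members called does not set the pathway apart. The median log2 fold change of the 9 genes was 1.00, and that of all genes tested was 0.00 to 2 decimals (−0.0044). The value of 1.00 is that of HES1, which was 0.61 without MI503 replicate 1. The 9 genes ran from −5.06 to 6.03, so the median does not describe a shared shift.

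**Figure D1:**
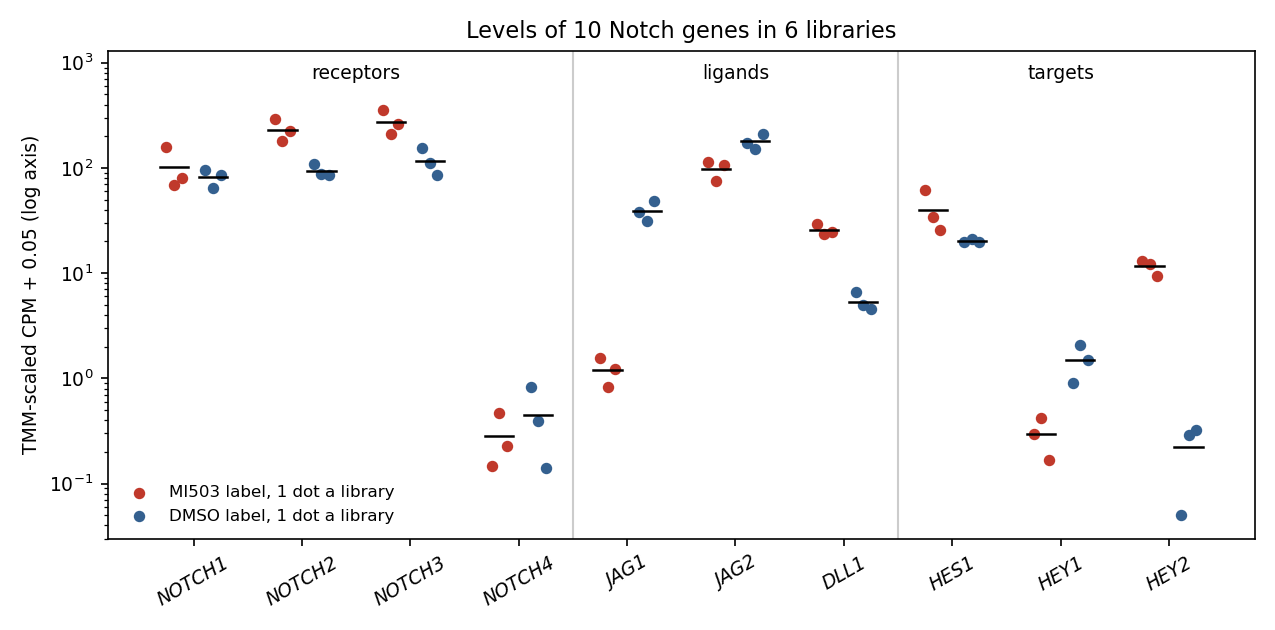
Level of each of the 10 Notch genes in every library, as TMM-scaled CPM plus 0.05 on a log axis, with libraries labelled MI503 in red on the left and those labelled DMSO in blue on the right. Dots stand for single libraries and horizontal bars for means over 3. JAG1 lies at 0.785 to 1.51 CPM with the MI503 label and 31.5 to 48.0 CPM with the DMSO label, and HEY2 at 9.39 to 13.02 and 0 to 0.274 CPM.

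Among the receptors, NOTCH2 and NOTCH3 were each more than 2-fold higher with the MI503 label, while the NOTCH1 libraries overlapped. NOTCH3, a receptor best known from vascular smooth muscle and also made by luminal epithelium, lies on chromosome 19 of GRCh38 from 15159038 to 15200995. It was at 353, 210 and 262 CPM in libraries labelled MI503, against 154, 112 and 85.3 CPM in libraries labelled DMSO. All MI503 values were above all DMSO values, with MI503 replicate 1 and DMSO replicate 1 the highest of their labels. By edgeR this was a log2 fold change of 1.23 (SE 0.25, adjusted p = 0.00175).

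NOTCH2, on chromosome 1 from 119911553 to 120100779, was at 293, 179 and 224 CPM with the MI503 label, against 109, 87.6 and 86.5 CPM with the DMSO label. The lowest MI503 library was thus well above the highest DMSO library. EdgeR gave a log2 fold change of 1.30 (SE 0.20, adjusted p = 0.000324). NOTCH2 has partial copies on the same chromosome, the NOTCH2NL genes, which share its first exons, so reads from these exons can be divided between them. Of the 31-base stretches of the main transcript NOTCH2-201, 6.36% also occur in a transcript of a copy. With the reads of all 4 copies added to NOTCH2, its log2 fold change was 1.19.

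The copies themselves did not all follow NOTCH2. NOTCH2NLA was at 52.2 ± 9.01 CPM with the MI503 label and 24.2 ± 5.21 CPM with the DMSO label (SD, n = 3 each; log2 fold change 1.11, adjusted p = 0.00104 from edgeR). NOTCH2NLR had no reads in any library labelled MI503, against 68, 39 and 33 estimated reads in libraries labelled DMSO. This is at least 40.7-fold lower, with a floor of 3 reads over the MI503 group that covers counting error only. NOTCH2NLR passed the filter on low counts through the DMSO label alone. Of the 31-base stretches of its transcript, 24.1% are also in NOTCH2-201, so how its reads were divided from those of NOTCH2 and the other copies is uncertain. The same holds for the other copies, whose transcripts share up to 33.9% of such stretches (NOTCH2NLA-203) with NOTCH2-201. Stretches shared between the copies were not counted. NOTCH2NLC was higher (log2 fold change 0.86, adjusted p = 0.043 from edgeR) but lost its call in 8 of 16 alternatives, which gave an adjusted p of 0.0044 to 0.151. Among these were limma-voom (adjusted p = 0.052) and leaving out MI503 replicate 1 or 2 or DMSO replicate 2 or 3 (adjusted p = 0.0644 to 0.151). NOTCH2NLB was at 7.80 ± 1.48 CPM with the MI503 label and 5.16 ± 0.593 CPM with the DMSO label (SD, n = 3 each) and did not pass (adjusted p = 0.0762). It passed without MI503 replicate 1 (adjusted p = 0.032).

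NOTCH1, on chromosome 9 from 136494433 to 136546048, was at 158, 68.8 and 80.0 CPM with the MI503 label, against 94.6, 64.0 and 85.1 CPM with the DMSO label. MI503 replicate 1 was the highest of the 6 libraries, and the other MI503 libraries lay within the DMSO range. The log2 fold change was 0.33 (standard error 0.30, adjusted p = 0.351 from edgeR), and without MI503 replicate 1 it was −0.078 (adjusted p = 0.761).

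NOTCH4, a receptor mainly of endothelial cells, had 2, 8 and 3 reads in libraries labelled MI503, against 17, 7 and 2 reads in libraries labelled DMSO. These ranges overlap, and at this depth no difference was detectable. All of these reads but 3 were assigned to NOTCH4-205, a transcript with 2 exons and a retained intron at the 3′ end of the gene, which overlaps the neighboring gene GPSM3 on the same strand. The 3 reads given to the full-length transcript NOTCH4-201 were all in MI503 replicate 3. Of the endothelial markers, PECAM1 and CDH5 had no reads with the MI503 label and at most 2 and 1 reads in a library labelled DMSO. VWF, of the same list, was at 0.0733 ± 0.0395 CPM with the MI503 label and 24.5 ± 8.75 CPM with the DMSO label (SD, n = 3 each). ESAM was the only other endothelial marker tested and lay on the opposite side, at 4.59 ± 0.104 CPM with the MI503 label and 0.662 ± 0.296 CPM with the DMSO label (SD, n = 3 each; log2 fold change 2.78, adjusted p = 0.000231 from edgeR). Over all 6 endothelial markers the summed level was 4.53 to 4.87 CPM with the MI503 label and 15.7 to 31.9 CPM with the DMSO label.

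Replicate 1 of each label had more reads on long transcripts, and the receptor genes are long. Among 563 genes with an effective transcript length of at least 6000 bases and a mean of at least 5 CPM with both labels, the median deviation from the label's mean was 0.17 on the log2 scale in MI503 replicate 1 and 0.28 in DMSO replicate 1. In the other 4 libraries it was between −0.07 and −0.17. The mean effective lengths of NOTCH1, NOTCH2 and NOTCH3 were 9350, 10521 and 7161 bases, and in MI503 replicate 1 they deviated by 0.72, 0.37 and 0.39 on the log2 scale. HES1, with an effective length of 1285 bases, deviated by 0.70 in the same library, where the median of the 4667 genes under 2000 bases was −0.053. The 563 long genes had a median log2 fold change of −0.02 between the labels. Without MI503 replicate 1 the log2 fold changes of NOTCH2 and NOTCH3 were 1.14 and 1.07, and both passed the test.

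**Figure D2:**
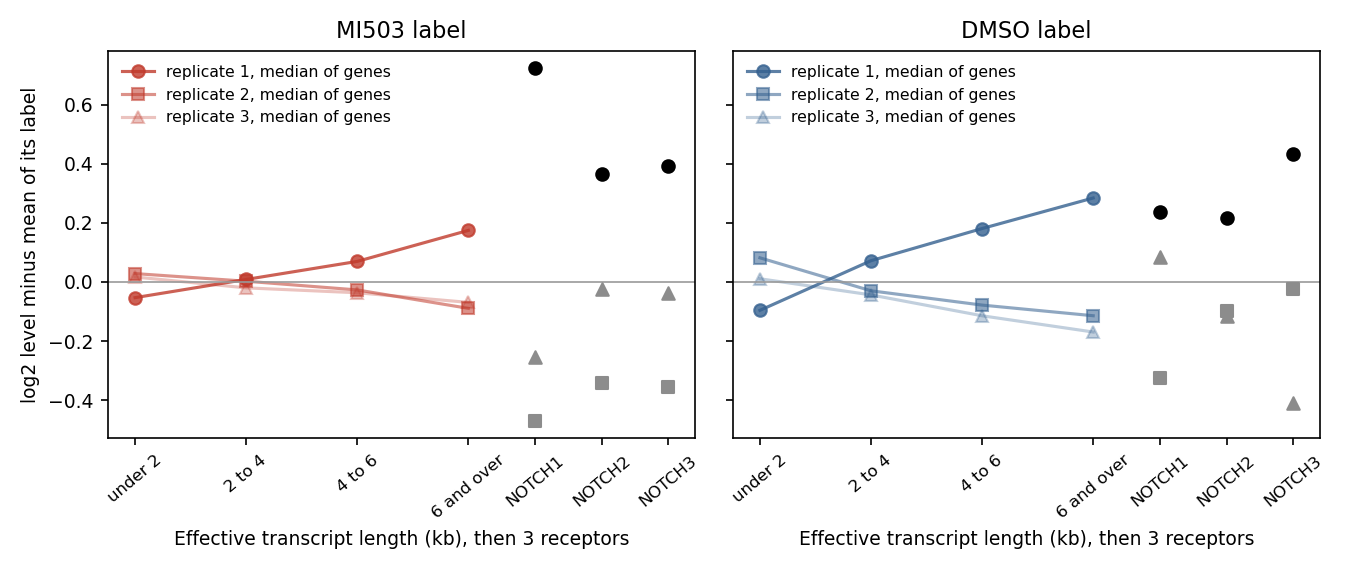
Deviation of each library from the mean of its label, in log2 units of CPM plus 0.5, for genes in 4 classes of effective transcript length (lines, medians) and for 3 receptor genes (black for replicate 1, gray for replicates 2 and 3), with the MI503 label on the left and the DMSO label on the right. Replicate 1 of both labels rises with length, to 0.17 and 0.28 among transcripts of 6 kb and over, and NOTCH1 in MI503 replicate 1 lies at 0.72.

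Of the ligands, JAG1 showed the largest fall among the 10 genes, JAG2 was under 2-fold lower, and DLL1 was nearly 5-fold higher. JAG1, on chromosome 20 from 10637684 to 10673999, encodes the Jagged ligand that many epithelial and stromal cells present to their neighbors. It had 1.51, 0.785 and 1.19 CPM in libraries labelled MI503, against 38.0, 31.5 and 48.0 CPM in libraries labelled DMSO. The MI503 values rest on 31, 15 and 20 reads, and the DMSO values on 651 to 1053 reads. The log2 fold change was −5.06 (standard error 0.30, adjusted p = 5.15e-07 from edgeR), a 33.5-fold difference.

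JAG2, the second Jagged ligand, lies on chromosome 14 from 105140982 to 105168824. It was at 113, 74.7 and 106 CPM with the MI503 label, against 174, 153 and 212 CPM with the DMSO label. The groups did not overlap, and MI503 replicate 2 was the lowest library. JAG2 thus fell, with a log2 fold change of −0.87 (SE 0.20, adjusted p = 0.00322 from edgeR).

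DLL1, a Delta ligand known in the mouse for its role in mammary stem cells, lies on chromosome 6 from 170282206 to 170306565. It was at 29.5, 23.4 and 24.4 CPM with the MI503 label, against 6.51, 4.94 and 4.47 CPM with the DMSO label. Every MI503 library was over 3 times the highest DMSO library. Its log2 fold change was 2.28 ± 0.23 (standard error; adjusted p = 1.75e-05 from edgeR), 4.85-fold. The 5′ end of DLL1 overlaps FAM120B on the opposite strand, and without a stated strand setting reads in the overlap cannot be told apart. FAM120B averaged 36.0 CPM with the MI503 label and 24.0 CPM with the DMSO label.

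Of 6 other ligand genes, DLL4 rose, DLL3 fell, 1 did not pass the test and 3 had too few reads to be tested (2 of 3 tested called, against 62.9% of all genes tested). DLL3, a divergent Delta ligand that acts within the cell that makes it, had 0, 1 and 0 reads in libraries labelled MI503, against 288, 329 and 233 reads in libraries labelled DMSO. Pooled over each label, the reads stood in a DMSO to MI503 ratio of 742, whose 95% counting interval runs from 133 to 29333 (adjusted p = 8.38e-07 from edgeR). DLL3 passed the filter on low counts through the DMSO label alone, so its call was in part set by the filter. It is also known from neuroendocrine tumors. The 6 neuroendocrine markers summed to 6.43 to 7.66 CPM with the MI503 label and 0.995 to 1.87 CPM with the DMSO label. Of these, 4 had too few reads to be tested, and INSM1 and SYP were higher with the MI503 label (31.7% of all genes tested were higher). INSM1 had 51, 66 and 78 reads with the MI503 label and none with the DMSO label. It passed the filter on low counts through the MI503 label alone, so its call was in part set by the filter. DLL4, an endothelial Delta ligand, was at 0.994 ± 0.322 CPM with the MI503 label and 0.404 ± 0.116 CPM with the DMSO label (SD, n = 3 each). Its log2 fold change of 1.29 (adjusted p = 0.0359 from edgeR) lost its call in 11 of 15 alternatives, with DESeq2 (adjusted p = 0.106) and without any 1 of the 6 libraries (adjusted p = 0.0578 to 0.129) among them.

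Levels were compared between genes as TPM, which takes transcript length into account. The 4 receptors summed to 116, 63.6 and 80.3 TPM with the MI503 label, against 57.6, 36.7 and 38.5 TPM with the DMSO label. NOTCH3 made up 53.8 ± 0.177% of this sum with the MI503 label and 47.2 ± 3.48% with the DMSO label (SD, n = 3 each). NOTCH1 made up 14.5 ± 2.60% with the MI503 label and 26.0 ± 3.99% with the DMSO label (SD, n = 3 each), and the groups did not overlap. NOTCH1 thus took a smaller share of the receptor sum with the MI503 label, where NOTCH2 and NOTCH3 were higher. The NOTCH1 level itself did not pass the test, and the receptor shares were not tested.

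The 5 ligands JAG1, JAG2, DLL1, DLL3 and DLL4 summed to 48.2, 35.4 and 42.0 TPM with the MI503 label, against 86.6, 75.9 and 107 TPM with the DMSO label. JAG2 was the main ligand gene in every library, at 78.1 ± 1.77% of the sum with the MI503 label and 76.7 ± 4.27% with the DMSO label (SD, n = 3 each), and these shares overlapped. The TPM of JAG2 sums all its transcripts. Among them is JAG2-203, a transcript with a retained intron that took 13.1% to 26.5% of the gene's reads. The share and rank of JAG2 are therefore not those of its protein-coding transcripts alone. The rest of the ligand sum was made up differently. DLL1 was the second ligand with the MI503 label, at 20.3 ± 1.79% against 2.17 ± 0.716% with the DMSO label (SD, n = 3 each). JAG1 and DLL3 were at 0.708 ± 0.277% and 0.0269 ± 0.0465% with the MI503 label, against 11.1 ± 1.51% and 9.72 ± 3.59% with the DMSO label (SD, n = 3 each). DLL4 was under 1.1% in every library. These shares were not tested.

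**Figure D3:**
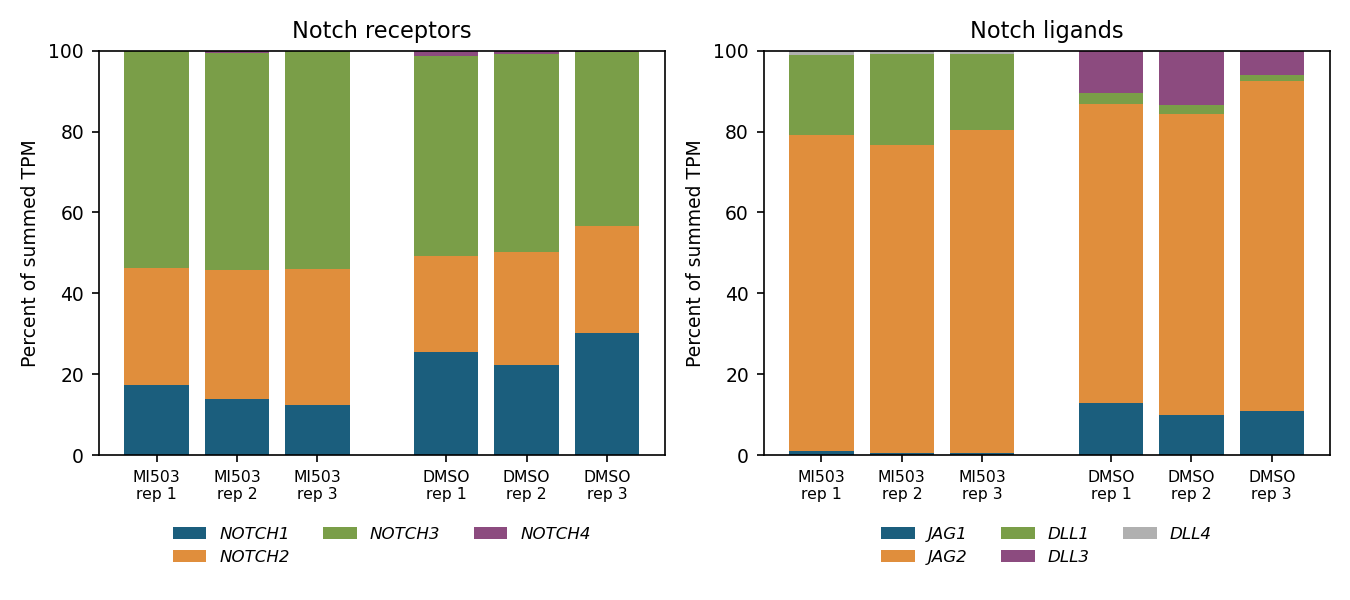
Percent of the summed TPM of 4 receptor genes (left) and 5 ligand genes (right) that each gene made up in each library, with the 3 libraries labelled MI503 to the left of the 3 labelled DMSO in each panel. JAG2 takes 74.0% to 81.7% of the ligand sum in every library, while DLL1 takes 18.8% to 22.3% with the MI503 label and 1.42% to 2.85% with the DMSO label.

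The order of the 10 genes by TPM differed between the labels. With the MI503 label it was NOTCH3 (46.6 ± 14.4 TPM), HES1 (37.6 ± 17.4), JAG2 (32.7 ± 5.37), NOTCH2 (26.9 ± 6.59), NOTCH1 (12.95 ± 6.25), DLL1 (8.44 ± 0.934) and HEY2 (6.10 ± 0.934; SD, n = 3), followed by JAG1, HEY1 and NOTCH4, each below 0.5 TPM in every library. Neighbors in this order overlapped in their libraries except at NOTCH2 against NOTCH1, DLL1 against HEY2 and HEY2 against JAG1. With the DMSO label JAG2 led at 69.3 ± 16.0 TPM, above all libraries of NOTCH3 (21.0 ± 6.46 TPM) and HES1 (20.1 ± 0.748 TPM; SD, n = 3 each). NOTCH1, NOTCH2 and JAG1 followed at 11.5 ± 3.28, 11.4 ± 2.01 and 10.0 ± 2.27 TPM (SD, n = 3 each) and overlapped with each other. These were below HES1 and above DLL1 (1.89 ± 0.505 TPM; SD, n = 3) in every library. HEY1, NOTCH4 and HEY2 came last, each overlapping with the gene before it.

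The 3 target genes gave 3 different patterns, a moderate rise of HES1, a large rise of HEY2 and a fall of HEY1 at low counts. HES1, the repressor most often used as a readout of Notch activity, lies on chromosome 3 from 194136148 to 194138732. It was at 61.1, 34.0 and 25.4 CPM with the MI503 label, against 19.5, 21.1 and 19.8 CPM with the DMSO label. The DMSO libraries were close together, while MI503 replicate 1 was more than 2 times MI503 replicate 3. The log2 fold change was 1.00 (standard error 0.29, adjusted p = 0.0124 from edgeR). Without MI503 replicate 1 it was 0.61 (adjusted p = 0.0251), and over the 16 alternatives the adjusted p ranged from 8.86e-05 to 0.0368.

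HEY2, a repressor best known from the developing heart and arteries, lies on chromosome 6 from 125747664 to 125761269. It had 13.02, 12.2 and 9.39 CPM with the MI503 label, against 0, 0.242 and 0.274 CPM with the DMSO label. In reads these are 267, 233 and 158, against 0, 5 and 6, so the gene was at the limit of detection with the DMSO label. The log2 fold change was 6.03 (standard error 0.59, adjusted p = 1.53e-05 from edgeR), and leaving out 1 library in turn gave 5.45 to 6.54.

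HEY1, a related repressor on chromosome 8, had 5, 7 and 2 reads in libraries labelled MI503, against 19, 42 and 32 reads in libraries labelled DMSO. Each DMSO library had more reads than any MI503 library, and all values were under 2.1 CPM. HEY1 fell by edgeR with a log2 fold change of −2.53 (SE 0.56, adjusted p = 0.00286). With a filter of at least 1 CPM in 3 libraries HEY1 was no longer tested.

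**Figure D4:**
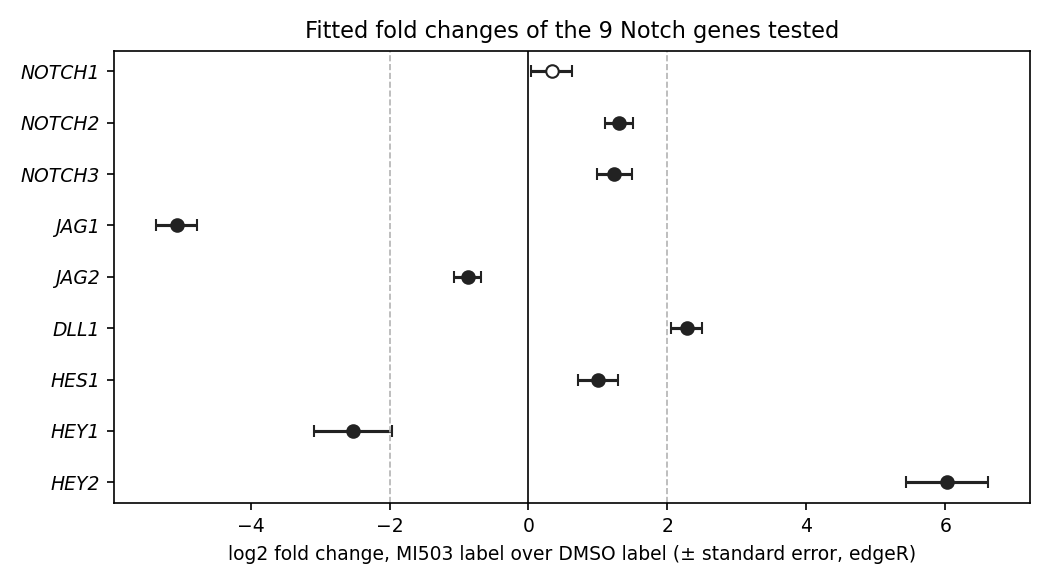
Fitted log2 fold change of the libraries labelled MI503 over those labelled DMSO for the 9 Notch genes tested, with bars for the standard error from edgeR (3 libraries a label), filled dots for an adjusted p under 0.05 and dashed lines at −2 and 2. JAG1 lies at −5.06 and HEY2 at 6.03, and the open dot of NOTCH1 lies at 0.33.

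Other HES and HEY genes and targets of the pathway did not share 1 direction. Of 12 genes in this list, 3 rose, 2 fell, 4 did not pass the test and 3 were not tested (5 of 9 tested called, against 62.9% of all genes tested), with a median log2 fold change of 0.14. HES6, a HES family protein known in the mouse to oppose HES1, was at 19.8, 14.9 and 22.6 CPM with the MI503 label, against 167, 280 and 224 CPM with the DMSO label. No libraries overlapped, and the log2 fold change was −3.55 (standard error 0.24, adjusted p = 1.39e-06 from edgeR). BHLHE40, a basic helix-loop-helix repressor of the clock and of stress responses, was at 373 ± 34.3 CPM with the MI503 label and 97.1 ± 26.1 CPM with the DMSO label (SD, n = 3 each; log2 fold change 1.94, adjusted p = 3.53e-05 from edgeR).

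ID1, an inhibitor of basic helix-loop-helix factors, was at 27.4, 47.4 and 56.6 CPM with the MI503 label, against 2.44, 6.15 and 25.2 CPM with the DMSO label (log2 fold change 1.96, adjusted p = 0.0262 from edgeR). DMSO replicate 3 was the highest of its label, and without it the log2 fold change was 3.35. The call was lost with DESeq2 (adjusted p = 0.0556) and without MI503 replicate 2, MI503 replicate 3 or DMSO replicate 2 (adjusted p = 0.0601, 0.0802 and 0.095). CCND1, which encodes cyclin D1, was at 268 ± 85.9 CPM with the MI503 label and 372 ± 66.3 CPM with the DMSO label (SD, n = 3 each) and did not pass (adjusted p = 0.112 from edgeR), although it did without MI503 replicate 3 (adjusted p = 0.043). NRARP, a feedback inhibitor that the receptor complex turns on, was at 80.0 ± 10.5 CPM with the MI503 label and 68.8 ± 5.25 CPM with the DMSO label (SD, n = 3 each; log2 fold change 0.22, adjusted p = 0.25 from edgeR). HES4 was at 57.8 ± 5.50 and 61.8 ± 4.42 CPM with the same labels (SD, n = 3 each; log2 fold change −0.10, adjusted p = 0.599 from edgeR). NRARP and HES4 were named after their values were seen, as HES1-like readouts that did not pass the test.

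Of 18 genes that cut or glycosylate the receptors, 10 rose, 2 fell and 6 did not pass the test (12 of 18 called, against 62.9% of all genes tested), with a median log2 fold change of 0.63. APH1A and NCSTN, subunits of γ-secretase, were at 275 ± 24.3 and 169 ± 3.40 CPM with the MI503 label, against 139 ± 15.7 and 89.1 ± 17.1 CPM with the DMSO label (SD, n = 3 each). Their log2 fold changes were 0.99 and 0.93 (adjusted p = 0.000313 and 0.00085 from edgeR). GXYLT1 and GXYLT2, xylosyltransferases that extend O-glucose on the receptors, rose by log2 fold changes of 1.03 and 2.38 (adjusted p = 0.0003 and 0.000163 from edgeR).

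Of 16 genes for endocytosis and ubiquitin ligases of the pathway, 7 rose, 3 fell and 6 did not pass the test (10 of 16 called, against 62.9% of all genes tested), with a median log2 fold change of 0.19. DTX3, an E3 ligase of the Deltex family, was at 64.5, 39.8 and 45.0 CPM with the MI503 label, against 0.271, 0.387 and 0.274 CPM with the DMSO label. This was the largest rise in the list, with no overlap, with edgeR's log2 fold change at 7.30 ± 0.32 (standard error; adjusted p = 8.11e-08). DTX3 passed the filter on low counts through the MI503 label alone, so its call was in part set by the filter. The relatives DTX2 and DTX4 rose by log2 fold changes of 1.32 and 2.71 (adjusted p = 9.71e-05 and 1.16e-05 from edgeR). DTX3L, a further relative named after its values were seen, fell, at 25.0 ± 3.92 CPM with the MI503 label and 45.9 ± 15.5 CPM with the DMSO label (SD, n = 3 each; log2 fold change −0.88, adjusted p = 0.011 from edgeR). NEURL1B, an E3 ligase that acts on Delta and Jagged ligands, was at 252 ± 60.5 CPM with the MI503 label and 35.9 ± 7.96 CPM with the DMSO label (SD, n = 3 each; log2 fold change 2.81, adjusted p = 5.2e-06 from edgeR).

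Of 22 genes of the nuclear complex, 5 rose, 9 fell, 6 did not pass the test and 2 were not tested (14 of 20 tested called, against 62.9% of all genes tested), with a median log2 fold change of −0.22. NCOR1, a corepressor, was at 81.8, 82.1 and 83.5 CPM with the MI503 label, against 313, 258 and 294 CPM with the DMSO label, and its log2 fold change was −1.80 (standard error 0.15, adjusted p = 4.19e-06 from edgeR). HDAC2, a histone deacetylase, and MAML3, a Mastermind coactivator, fell with log2 fold changes of −1.56 and −1.71 (adjusted p = 2.23e-05 and 0.000221 from edgeR). TLE1, a Groucho-type corepressor that works with HES proteins, rose by a log2 fold change of 1.40 (adjusted p = 7.87e-05 from edgeR). Other genes of both families, named after their values were seen, did not share 1 direction. TLE2 and TLE5 rose and TLE3 fell (log2 fold changes 0.56, 0.81 and −0.98, adjusted p = 0.0107, 0.000718 and 0.00242 from edgeR). MAML2 rose at low levels and passed the filter on low counts through the MI503 label alone. It was at 3.99 ± 0.241 CPM with the MI503 label and 0.295 ± 0.187 CPM with the DMSO label (SD, n = 3 each; log2 fold change 3.73, adjusted p = 0.000162 from edgeR). MAML1 did not pass the test (adjusted p = 0.906 from edgeR). RBPJ, named after its values were seen as the factor to which the receptors bind, was at 56.3 ± 1.80 CPM with the MI503 label and 107 ± 14.6 CPM with the DMSO label (SD, n = 3 each), and its log2 fold change was −0.93 (standard error 0.15, adjusted p = 0.000481 from edgeR).

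Over the 5 lists together, 25 of the 65 genes tested rose and 17 fell, 64.6% in all, against 62.9% of all genes tested. The median log2 fold change of these 65 genes was 0.03. The share called is close to the background, and the lists are given as descriptions of these libraries.

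**Figure D5:**
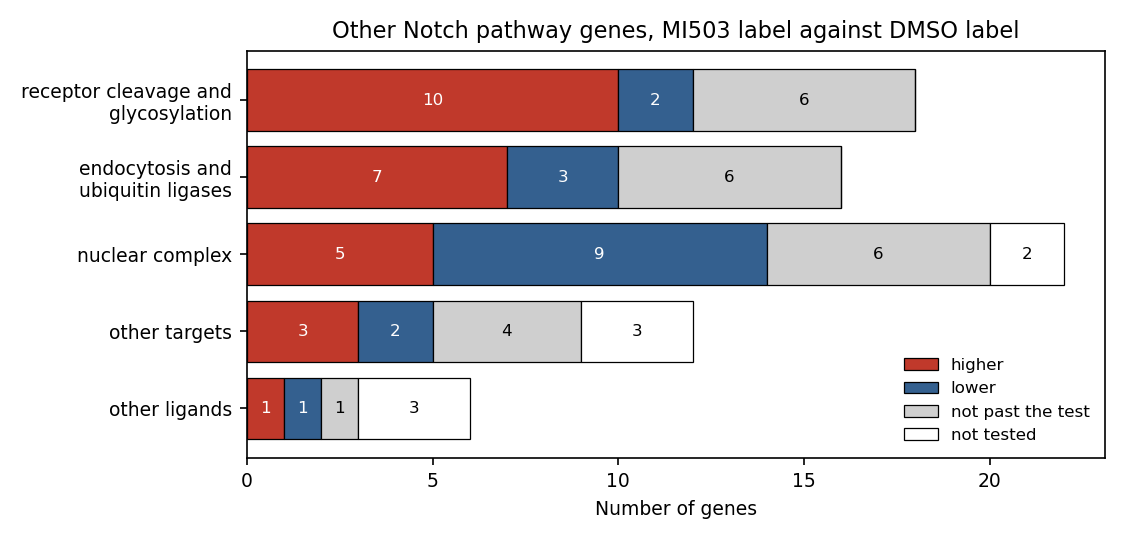
Number of genes in 5 lists of other Notch pathway genes that were higher, lower, not past the test or not tested in libraries labelled MI503 compared with those labelled DMSO, at an adjusted p of 0.05 from edgeR. Of the genes for receptor cleavage and glycosylation 10 were higher and 2 lower, and of those of the nuclear complex 5 were higher and 9 lower. DTX1 stands in 2 lists.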

How the data were processed

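The authors ran salmon within Illumina DRAGEN and deposited, per transcript, estimated counts without normalization and TPM. The submitters' processing notes name GRCh38.p13 and hg38. For the salmon version, strand setting and annotation release, no value was given in the sources used here. GENCODE release 44 placed 229321 of 232117 transcripts (98.8%) in genes, and with them 99.2% or more of each library's reads. Estimated counts were summed to genes and rounded. Libraries were grouped by their titles. The MI503 label was compared with the DMSO label by edgeR 4.0.16's quasi-likelihood test after TMM scaling (factors 0.934 to 1.053) and filterByExpr, with Benjamini-Hochberg adjustment over 16442 genes. The study's tool, DESeq2 1.42.0, and limma 3.58.1 were alternatives, as were other scalings and filters, a length offset, the replicate block and leaving out each library. Where a label had no reads, 3 reads over the group served as the floor. Intervals and floors cover counting error only, and p-values measure the spread between these libraries.

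The members and lists were chosen with earlier results of these data known. Named were the 10 members, ESR1, PGR, KLK3, HOXB13, KMT2A, MEN1 and the NOTCH2 copies. From each list came up to 4 genes with the smallest adjusted p at a mean of at least 5 CPM with either label, with further ligands of at least 1 CPM in a library. Other genes were named after their values were seen.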

Additional observations from a re-analysis of the deposited data

How the results depend on the processing

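The counts of members that rose and fell, 5 and 3, were found in 16 of 17 alternatives, and with at least 1 CPM in 3 libraries, where HEY1 was not tested, 2 fell. That filter also left 1 member, in place of 2, that fell by more than 2 on the log2 scale. Of 144 values of the 9 tested members under the alternatives, 143 kept their direction and side of the threshold. The exception was NOTCH1, whose log2 fold change was −0.078 to 0.57 with 1 library left out, the lowest without MI503 replicate 1. That of KMT2A was −0.016 to 0.59, and again the lowest was without MI503 replicate 1. With no filter on low counts 5 genes of the other pathway lists, in place of 3, fell by more than 2 on the log2 scale. Library totals alone, with no scaling factors, shifted the median log2 fold change of all genes by −0.12, and no member's direction changed. Over all 16442 genes, which are not independent, the same replicate numbers did not deviate together (r = −0.098, 0.071 and −0.089). They were therefore not treated as pairs. Long genes were an exception, as their median deviations (6000 bases and over) had the same sign in both labels for each replicate number. NOTCH2 and NOTCH3 also did so. With the replicate block their log2 fold changes were 1.28 and 1.24 (adjusted p = 0.000336 and 0.000785 from edgeR). With the replicate block 5 members rose and 3 fell, and of all genes 5071 rose and 4913 fell, against 5208 and 5130 without it. Depth limits HEY1, NOTCH4, the DMSO levels of HEY2 and the MI503 levels of JAG1, each with 42 or fewer reads in any such library.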

Other observations

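Nearly all reads of most members were assigned to 1 full-length transcript. The canonical protein-coding transcript took at least 90.3% of the reads of NOTCH1, NOTCH2, NOTCH3, JAG1, DLL1 and HES1 in every library. JAG2 was the exception among the well-covered genes. Its main transcript JAG2-201 took 70.0 ± 3.82% of the gene's reads with the MI503 label and 72.3 ± 6.84% with the DMSO label (SD, n = 3 each). JAG2-203, a transcript with 7 exons and a retained intron, took 19.7 ± 4.24% and 21.0 ± 6.97% with the same labels (SD, n = 3 each). JAG2-202, a protein-coding form with 25 exons in place of 26, took 7.48 ± 1.66% with the MI503 label, against 3.02 ± 0.878% with the DMSO label (SD, n = 3 each), and the libraries did not overlap. These shares are estimates by salmon for transcripts that share most of their sequence, and the difference was not tested. All reads of HEY2 with the MI503 label were assigned to HEY2-201. The 11 reads with the DMSO label were 5 of HEY2-202 in replicate 2 and 6 of HEY2-201 in replicate 3.

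The genes with the most alike levels to NOTCH3 over the 6 libraries, by Euclidean distance of log2(CPM + 1) among protein-coding genes, were IRF2BP2 and CTDSP2 (distances 0.368 and 0.426). For NOTCH2 they were ZDHHC7 and SPTAN1 (distances 0.347 and 0.392), and for JAG2 they were SUPT5H and CCAR2 (distances 0.478 and 0.531). IRF2BP2 was at 260.3 ± 43.1 CPM with the MI503 label and 109 ± 30.3 CPM with the DMSO label (SD, n = 3 each).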
